A study of Bos taurus with 8 samples.

Results

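Cadherins and the factors of the epithelial to mesenchymal transition (EMT) were followed in bovine embryonic stem cells (bESCs) moved from a feeder layer to feeder-free culture in low oxygen. The members were taken by name from the deposited count table: CDH1, CDH2, CDH11, EPCAM, VIM, ZEB1, ZEB2, SNAI1, SNAI2 and TWIST1. All 10 were present among the 32637 genes with values, and 10 of 10 passed the filter on low counts that left 15744 genes for testing. The libraries came from lines A, C, D and E, all labelled XX, and each of these 4 lines was sampled in 2 conditions under 5% O2. The MEF condition was culture on irradiated mouse embryonic fibroblasts, sampled at passage 15 to 17. The feeder-free condition was the same 4 lines on vitronectin, an adhesion protein of serum and matrix, at passage 20 to 22. Matrix, feeder cells and passage therefore changed together, and their parts cannot be told apart. The library names give the same medium code, NBFRA, for both conditions, whereas the methods describe Activin A, a TGF-β family ligand, as an addition for feeder-free culture.

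Cadherins are transmembrane proteins that join a cell to its neighbour through calcium-dependent contacts and are anchored inside the cell by catenins. E-cadherin (CDH1) holds together epithelia and colonies of pluripotent cells, whereas N-cadherin (CDH2) and cadherin 11 (CDH11) are typical of neural and mesenchymal cells. In EMT, as in gastrulation, the transcription factors ZEB1, ZEB2, SNAI1, SNAI2 and TWIST1 are known to lower CDH1 and to favour mesenchymal genes such as VIM, which encodes the intermediate filament vimentin.

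A MEF library held 44268717 to 54296425 counts and a feeder-free library 49671478 to 102351560, the largest being that of line D. Levels are given as CPM, the counts of a gene divided by the scaled library total and brought to a common size. The libraries carried the markers of pluripotent cells, with POU5F1 at 1807 to 2341 CPM on MEF and 1725 to 1907 CPM in feeder-free culture. Several markers of early embryonic tissues were low, with TBXT and MIXL1 of the primitive streak, GATA4, GATA6 and SOX17 of endoderm, and PAX6 and SOX1 of neural tissue under 1 CPM in all 8 libraries. The trophoblast factor CDX2 had 0 counts in every library. Summed over each list, MEF and feeder-free libraries had 22.5 to 38.4 and 42.8 to 115 CPM of trophoblast markers, 4.99 to 15.3 and 3.99 to 7.11 CPM of endoderm markers, 2.31 to 8.42 and 7.70 to 12.0 CPM of primitive streak markers, and 235 to 406 and 246 to 462 CPM of neural markers. The 5 pluripotent cell markers summed to 3338 to 3802 CPM on MEF and 2914 to 3033 CPM without feeders, with 0 called by edgeR in either fit, by DESeq2 or by limma-voom, and 4 at an unadjusted P-value under 0.05, a level that 21.6 percent of all genes tested passed. The summed level of 22 fibroblast markers, of which 19 were tested, was 541 to 659 CPM on MEF and 317 to 1430 CPM in feeder-free conditions. COL1A1, a collagen chain gene also made by cells other than fibroblasts, gave 115 to 1033 CPM of the sum in cultures without feeders.

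None of the 10 members passed edgeR's quasi-likelihood test at the thresholds of the study's methods, which were 0.05 for the Benjamini-Hochberg adjusted P-value and 1.5 for the fold change. At an unadjusted P-value under 0.05 there were 3 members, ZEB1, SNAI2 and EPCAM, against 21.6 percent of all genes tested. At the adjusted thresholds, 0.724 percent of all genes were called higher and 1.00 percent lower in that fit. The same lines were sequenced in both conditions, so a paired fit was made as well, in which the line entered as a replicate block. It called 2 of the 10 members lower, ZEB1 and ZEB2, and 0 higher, against 4.53 percent of all genes lower and 5.52 percent higher. The likelihood ratio test and DESeq2 each called SNAI2 higher and ZEB1 lower, and limma-voom called 0 members. The median log2 fold change of the members was 0.034, against 0.0060 for all genes tested.

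**Figure D1:**
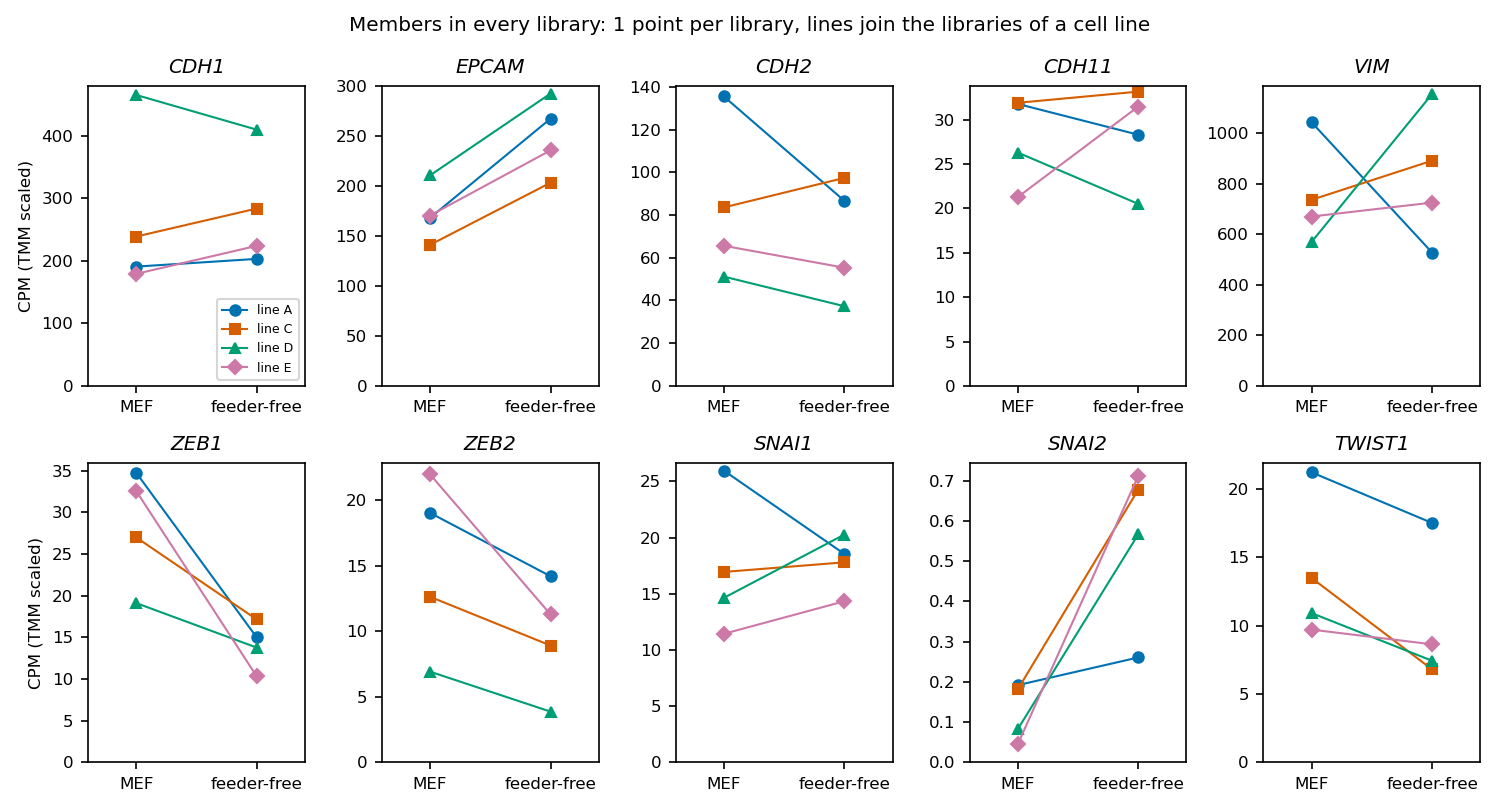
Level of each member in every library, in CPM on linear axes that start at 0, with 1 point per library and a line joining the MEF and feeder-free libraries of a cell line (n = 4 lines). EPCAM and SNAI2 were higher and ZEB1, ZEB2 and TWIST1 lower in all 4 lines, line D had the most CDH1 in both conditions, and the lines of VIM cross.

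CDH1, which spans 36046665 to 36119368 on chromosome 18 of the ARS-UCD2.0 assembly, differed less between conditions than between lines. It had 191, 239, 465 and 179 CPM on MEF in lines A, C, D and E, and 203, 283, 409 and 224 CPM in feeder-free conditions. Line D was above the others in both conditions, and the 2 groups overlapped. The fitted log2 fold change was 0.061 ± 0.33 (SE), with 0.945 as edgeR's adjusted p. Within lines the log2 ratio of feeder-free to MEF lay between -0.18 in line D and 0.32 in line E, and 3 of 4 lines were higher.

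EPCAM, on chromosome 11 from 29782764 to 29793451, encodes an adhesion molecule of epithelial and pluripotent cells that does not belong to the cadherins. It had 168, 141, 211 and 171 CPM on MEF in lines A, C, D and E and 268, 203, 293 and 236 CPM in feeder-free conditions. It was higher in 4 of 4 lines, although the highest MEF library, of line D, lay above the lowest feeder-free library, of line C. The size of the change was even between lines, with log2 ratios of 0.67, 0.53, 0.47 and 0.47. The log2 fold change was 0.53 ± 0.16 (SE), with 0.102 as edgeR's adjusted p, and the fold of 1.45 was under the threshold of 1.5. With the replicate block the adjusted p was 0.00910 (edgeR) at a log2 fold change of 0.53, so EPCAM passed on its P-value and missed on its fold.

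CDH2, on chromosome 24 from 28655756 to 28904115, was lower in 3 of 4 lines. Its levels were 135, 83.6, 51.2 and 65.6 CPM on MEF in lines A, C, D and E and 86.6, 97.4, 37.3 and 55.3 CPM in feeder-free conditions. Line D, highest for CDH1, was the lowest for CDH2 in both conditions. The log2 fold change was -0.28 ± 0.36 (SE), with 0.710 as edgeR's adjusted p and 0.213 with pairing. As a description of the balance between the cadherins, the log2 ratio of CDH2 to CDH1 counts within a library was lower in 4 of 4 lines. The changes were -0.74 in line A, -0.027 in line C, -0.27 in line D and -0.57 in line E. These are smaller than the distance between lines, since the ratio ranged from -3.18 to -0.49 on MEF and from -3.46 to -1.23 in feeder-free conditions.

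CDH11, on chromosome 18 from 32682889 to 32837030, was higher in some lines and lower in others. It had 31.8, 31.9, 26.3 and 21.3 CPM on MEF in lines A, C, D and E and 28.3, 33.1, 20.5 and 31.5 CPM in feeder-free conditions. Lines C and E were higher and lines A and D lower, and the log2 fold change was 0.028 ± 0.19 (SE), with 0.957 as edgeR's adjusted p.

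VIM, on chromosome 13 from 31653816 to 31661745, was lower without feeders in line A and higher in the others. It had 1044, 737, 571 and 671 CPM on MEF in lines A, C, D and E and 528, 892, 1157 and 726 CPM in feeder-free conditions. Line A went from the highest to the lowest level of its condition and line D from the lowest to the highest, with log2 ratios of -0.98 and 1.02. The mean change was small beside these, at a log2 fold change of 0.13 ± 0.26 (SE), with 0.834 as edgeR's adjusted p.

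ZEB1, on chromosome 13 from 33771235 to 33968019, was called lower in the paired fit, whichever line was left out. Its levels were 34.8, 27.0, 19.1 and 32.6 CPM on MEF in lines A, C, D and E and 15.0, 17.2, 13.8 and 10.3 CPM in feeder-free conditions. All 4 feeder-free libraries lay below all 4 MEF libraries, which was so for 8.36 percent of all genes tested. The log2 fold change was -1.01 ± 0.22 (SE), with 0.0511 as edgeR's adjusted p, just short of the threshold. With the replicate block it was -0.995 ± 0.20 (SE), at an adjusted p of 0.0112 (edgeR), and ZEB1 passed as lower. That paired call held when line A, C, D or E was left out in turn, with adjusted p of 0.0367, 0.0342, 0.00982 and 0.0289 from edgeR. The fall was largest in lines E and A, with log2 ratios of -1.65 and -1.21, and smaller in C and D, at -0.65 and -0.47.

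ZEB2, on chromosome 2 from 52173847 to 52310458, differed between lines more than between conditions. It had 19.0, 12.6, 6.92 and 21.9 CPM on MEF in lines A, C, D and E and 14.2, 8.91, 3.87 and 11.3 CPM in feeder-free conditions. Every line was lower in feeder-free culture, by log2 ratios of -0.42 to -0.96, while the groups overlapped. The unpaired log2 fold change was -0.66 ± 0.43 (SE), with 0.423 as edgeR's adjusted p. The paired fit with the replicate block gave -0.68 ± 0.16 (SE), at an adjusted p of 0.0201 (edgeR), and called ZEB2 lower. That call was lost without line C, D or E, at adjusted p of 0.0605, 0.0944 and 0.0598 from edgeR, and kept without line A.

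**Figure D2:**
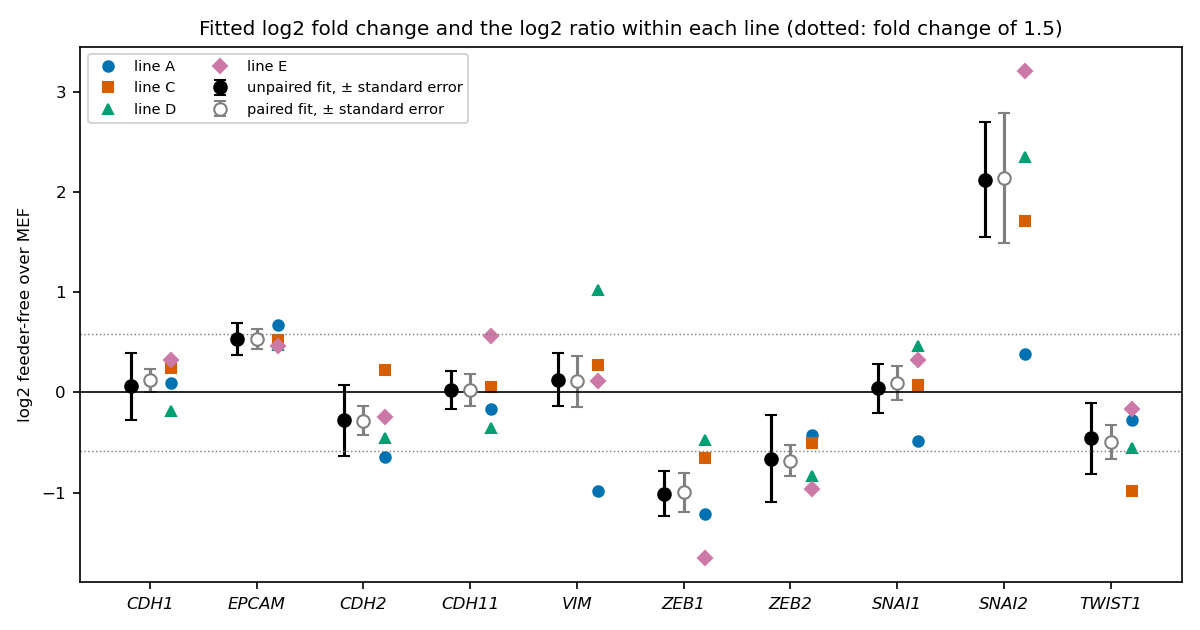
Change of each member on the log2 scale, feeder-free over MEF: fitted values of the unpaired fit (black) and the paired fit (open) with standard errors, and the difference in log2 CPM within each of the 4 lines (coloured). Dotted lines mark a fold change of 1.5. ZEB1 and ZEB2 lie below 0 in every line, EPCAM and SNAI2 above 0 in every line, and VIM runs from -0.98 to 1.02.

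SNAI1, on chromosome 13 from 78036445 to 78042572, encodes a repressor of CDH1. It had 25.95, 16.9, 14.6 and 11.4 CPM on MEF in lines A, C, D and E and 18.5, 17.8, 20.3 and 14.3 CPM in feeder-free conditions. It was lower in line A and higher in the others, and the log2 fold change was 0.041 ± 0.25 (SE), with 0.950 as edgeR's adjusted p.

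SNAI2, on chromosome 14 from 19941414 to 19945016, was close to the limit of detection. It had 8, 10, 4 and 2 counts on MEF in lines A, C, D and E and 13, 36, 58 and 37 counts in feeder-free conditions. This corresponds to 0.045 to 0.19 CPM on MEF and 0.26 to 0.71 CPM in feeder-free conditions, and the groups did not overlap, as for 6.21 percent of all genes in this direction. In line A the exact 95% Poisson intervals of the 2 libraries overlapped, at 0.083 to 0.378 CPM on MEF and 0.139 to 0.446 CPM in feeder-free conditions. These intervals cover counting error only. The log2 fold change was 2.12 ± 0.575 (SE), with 0.0789 as edgeR's adjusted p. With pairing edgeR's adjusted p was 0.0522. When line A, C, D or E was left out in turn, it was 0.0333, 0.149, 0.196 and 0.129. SNAI2 thus passed in the paired fit without line A only.

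TWIST1, on chromosome 4 from 27817880 to 27819874, had 21.2, 13.5, 10.9 and 9.72 CPM on MEF in lines A, C, D and E. In feeder-free conditions it had 17.5, 6.80, 7.44 and 8.64 CPM, which was lower in 4 of 4 lines although the groups overlapped. The log2 fold change was -0.46 ± 0.35 (SE), with 0.506 as edgeR's adjusted p and 0.0790 with pairing. TWIST1, ZEB1 and ZEB2 were thus the 3 members lower in every line, and EPCAM and SNAI2 the 2 members higher in every line. The share of all genes tested that moved the same way in every line was not counted, so these numbers are a description only.

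ZEB1, ZEB2 and TWIST1 are also expressed by fibroblasts. Some fibroblast markers were higher on MEF than without feeders, and others were lower. COL1A2, which encodes another collagen chain, had 0.91, 4.59, 4.65 and 0.68 CPM on MEF in lines A, C, D and E and 0 to 0.41 CPM in feeder-free conditions, and was called lower in the paired fit at a log2 fold change of -4.35 (adjusted p = 0.00166, edgeR). PRRX1, a mesenchymal transcription factor, was called lower in the paired fit too, with 45 to 141 counts on MEF against 0 to 62 in feeder-free conditions. TWIST2, a relative of TWIST1 that was too low to be tested, had 2 to 32 counts on MEF and 0 counts in every feeder-free library. On MEF, COL1A2 was lower in lines A and E than in lines C and D, and its relation to the ZEB1 changes was not tested. TWIST2 was named after its values were seen. DCN and PDGFRA, at 5.33 to 10.3 and 0.40 to 1.10 CPM on MEF, had log2 fold changes of -0.17 and -0.68 that did not pass (0.832 and 0.437 as edgeR's adjusted p). COL3A1 went the other way and was called higher in the paired fit, at a log2 fold change of 2.53. Over the 19 tested fibroblast markers the median log2 fold change was 0.12, against 0.0060 for all genes tested. Of these markers 0 passed the unpaired quasi-likelihood test of edgeR, and 5 had an unadjusted P-value under 0.05 beside 21.6 percent of all genes. The paired fit called 3 higher (COL3A1, POSTN and BGN) and 2 lower (COL1A2 and PRRX1), beside 5.52 percent of all genes higher and 4.53 percent lower. The likelihood ratio test called 1 higher and 2 lower, DESeq2 2 higher and 2 lower, and limma-voom 0. The part of feeder RNA in the ZEB1, ZEB2 and TWIST1 values was not tested. In bulk RNA, fewer cells of a type and less RNA per cell cannot be told apart.

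The members differed in how their variation was laid out over the 8 libraries. Of the sum of squares of log2 CPM, cell line accounted for 94.3 percent in CDH1, 85.0 percent in CDH2, 77.7 percent in ZEB2, 70.9 percent in TWIST1 and 68.2 percent in SNAI1. Condition accounted for 73.0 percent in ZEB1, 73.0 percent in SNAI2 and 63.8 percent in EPCAM. In VIM 91.9 percent followed neither line nor condition, and in CDH11 45.7 percent. Averaged over all genes tested, line took 49.6 percent, condition 26.6 percent and neither 23.8 percent. With 4 lines and 2 conditions, noise alone would also give line a larger share than condition, and the shares were not corrected for this.

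**Figure D3:**
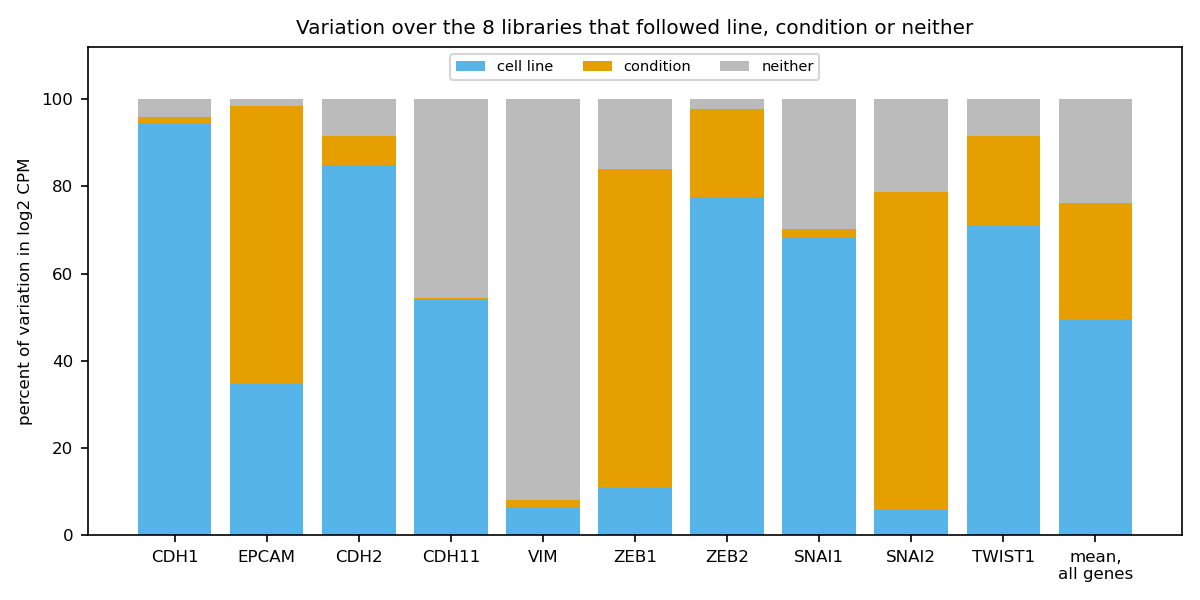
Share of the variation in log2 CPM over the 8 libraries that followed cell line, condition or neither, in percent of the sum of squares, for each member and as the mean of all genes tested. Line fills most of the bar in CDH1 and CDH2, condition in ZEB1, SNAI2 and EPCAM, and neither in VIM.

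Genes whose levels followed CDH1 and VIM most closely were ranked by Pearson's r of log2 CPM over the 8 libraries, as a description in which each line gives 2 points. For CDH1 they were CGN, ALG1, SMAD2, DNMT3B and PPP4R3A, with r from 0.94 to 0.96. For VIM they were MGAT1, LOC112443847, LOC616199, ST3GAL6 and SERINC2, with r from 0.89 to 0.97. With so few libraries, high values were common: the gene ranked 100 still had an r of 0.89 with CDH1 and 0.76 with VIM.

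Other cadherins were measured beside the members, and none was called in either fit. Of 20 in the list 13 were tested, 1 had an unadjusted P-value under 0.05 in edgeR's quasi-likelihood test beside 21.6 percent of all genes, and the median log2 fold change was 0.078. P-cadherin (CDH3), an epithelial cadherin, had a log2 fold change of 0.45 with 4 of 4 lines higher (edgeR's adjusted p was 0.408). The gene under 0.05 was CDH4, retinal cadherin, at 0.38 to 0.58 CPM on MEF and 0.71 to 2.00 CPM in feeder-free conditions. DESeq2 called CDH4 higher, and the likelihood ratio test and limma-voom called 0 of the list. CDH3 and CDH4 were named after their values were seen.

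The catenins and nectins, which anchor cadherins or join cells beside them, had a median log2 value of -0.27 over 13 tested genes, with 1 called lower and 0 higher. The called gene was CTNNA2, the α-catenin of neural cells, which went down from 23.3 ± 5.07 to 11.4 ± 2.30 CPM (both SD, n = 4), or by a log2 value of -1.03 ± 0.21 (SE), with 0.0466 as edgeR's adjusted p. CTNNA1, the widely expressed α-catenin, had a log2 fold change of 0.034. CTNNB1, which encodes β-catenin, had 870 to 909 CPM on MEF and 633 to 763 CPM in feeder-free conditions, and its log2 fold change was -0.37 (edgeR's adjusted p was 0.107). CTNNA1 and CTNNB1 were also named after their values were seen.

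Epithelial regulators had a median log2 value of 0.19 over 13 tested genes of 18, with 0 called in the unpaired quasi-likelihood test of edgeR and 5 at an unadjusted P-value under 0.05 (21.6 percent of all genes). The paired fit called 2 higher, beside 5.52 percent of all genes. The likelihood ratio test and DESeq2 each called KLF5 alone, and limma-voom called 0. KLF5, a transcription factor of epithelia and early embryos, had 1.86 to 6.44 CPM on MEF and 8.51 to 34.1 CPM in feeder-free conditions (paired log2 fold change 2.11, adjusted p = 0.00151, edgeR). ST14, a membrane protease of epithelia, had a paired log2 fold change of 0.61 (adjusted p = 0.0106, edgeR). The genes of the miR-200 family, which is known to hold down ZEB1 and ZEB2, had 0 counts in all 8 libraries for each of the 6 listed. About 3 counts, the one-sided 95% Poisson upper limit for a count of 0, would be 0.029 to 0.072 CPM per library. These counts do not measure mature miRNAs.

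Other EMT transcription factors had a median log2 value of -0.43 over 12 tested genes of 14. None was called in the unpaired quasi-likelihood test of edgeR, where 4 of 12 and 21.6 percent of all genes had an unadjusted P-value under 0.05. The paired fit called PRRX1, SOX9 and KLF8 lower, beside 4.53 percent of all genes. The likelihood ratio test called PRRX1, DESeq2 called PRRX1 and SOX9, and limma-voom called 0. PRRX1 and SOX9 had paired log2 fold changes of -4.15 and -1.15, and KLF8 had 5.28 to 12.9 CPM on MEF and at most 7.16 CPM in feeder-free culture. Of the cofactors and turnover factors of SNAI and ZEB proteins, 16 of 16 were tested, with 1 lower and 0 higher. GSK3B, a kinase known to mark SNAI1 protein for degradation, went down from 148 ± 12.4 to 93.8 ± 5.58 CPM (both SD, n = 4). AJUBA, a SNAI1 cofactor, was called higher in the paired fit at a log2 fold change of 0.62.

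The TGF-β pathway is known to induce EMT, and its listed genes include inhibitors of the pathway. Of 15 tested, 0 were called in the unpaired quasi-likelihood test of edgeR. An unadjusted P-value under 0.05 was found for 7, beside 21.6 percent of all genes. The paired fit called 2 lower, SMAD3 and SKIL, and 2 higher, LTBP1 and TGFBR3, the last being named to complete the count. Of all genes, the paired fit called 4.53 percent lower and 5.52 percent higher. The likelihood ratio test called SKIL alone, DESeq2 called SKIL, LTBP1 and TGFBR3, and limma-voom called 0. SMAD3, which carries the signal to the nucleus, had 90.4 to 97.3 CPM on MEF and 42.5 to 84.0 CPM in feeder-free conditions, and SKIL, an inhibitor of SMADs, had 226 to 293 and 123 to 189 CPM. The mesenchymal effectors had a median log2 value of 0.56 over 19 tested genes, with 1 called higher in the unpaired fit, TAGLN, an actin-binding protein. The paired fit called 3 higher, TAGLN, VCAN and ACTA2, at log2 fold changes of 3.69, 0.997 and 2.95, beside 5.52 percent of all genes. In line A alone ACTA2 was not higher, with 3.17 CPM on MEF and 2.75 CPM in feeder-free conditions. These unpaired calls rested on every library but 1. Omitting line A in feeder-free culture gave 6 genes of the lists higher and 3 lower, and omitting any other library gave 0. Calls over all genes, 114 higher and 158 lower with all libraries, behaved alike, so the loss was not particular to the lists. They became 259 higher and 231 lower when line A in feeder-free culture was omitted. When any other library was omitted they were at most 1 higher and 5 lower.

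**Figure D4:**
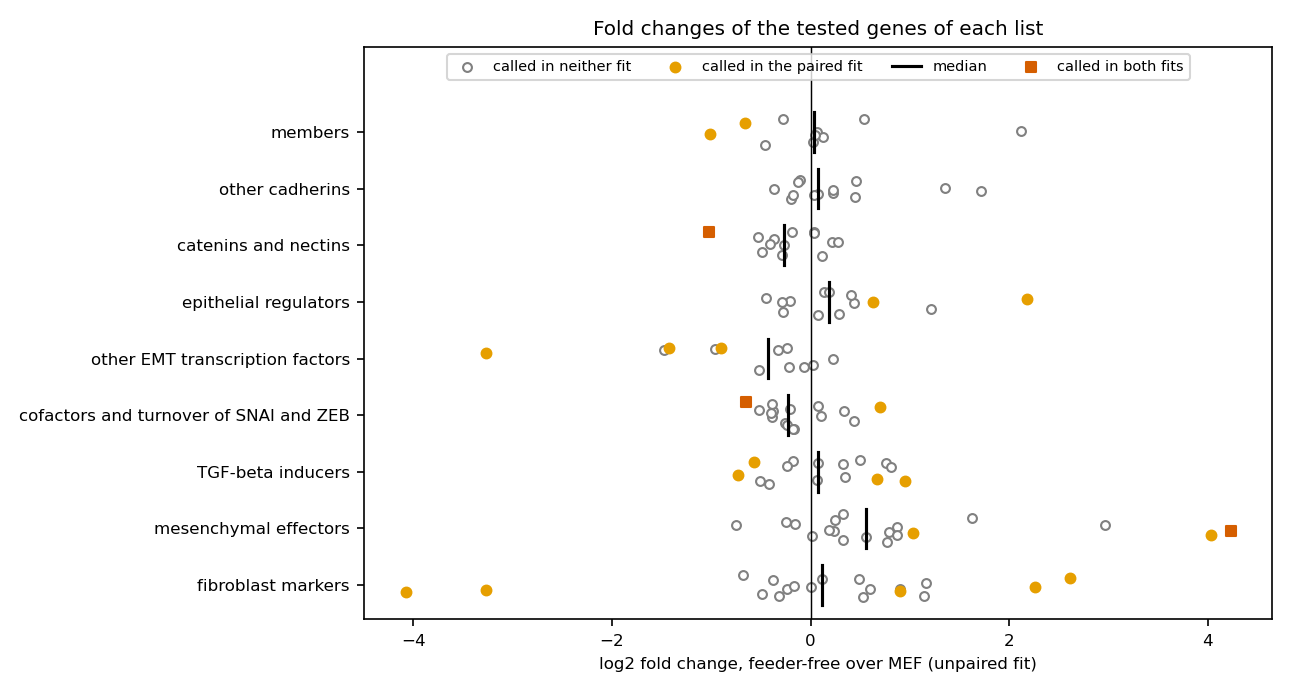
Log2 fold changes of the tested genes of each list in the unpaired fit, feeder-free over MEF, with 1 point per gene, the median of each list as a vertical bar, filled circles for genes called in the paired fit alone and squares for genes called in both fits. Catenins, other EMT transcription factors and the cofactors of SNAI and ZEB have medians below 0, at -0.27, -0.43 and -0.22. Mesenchymal effectors have a median above 0, at 0.56.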

How the data were processed

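RNA from 8 libraries was analysed. The authors trimmed reads with Trimmomatic, aligned them to ARS-UCD2.0 with STAR, filtered the alignments with Picard (optical duplicates) and samtools (mapping quality), and deposited raw counts per gene made by featureCounts (Subread 1.6.2 in the submitters' processing notes). The strand setting is not given in the sources used here. Reads found in a MEF sample without bESCs were, by the methods, taken off the counts on MEF, and whether the deposited table had this step is not given in the sources used here. The methods name RNeasy kits and the labels Trizol. Among 32640 rows, those of NEB, SYNE1 and DST were empty and not analysed, and 0 sample columns were unused.

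The unpaired fit was edgeR's quasi-likelihood test (version 4.0.16, R 4.3.3) with condition as its term, on TMM-scaled libraries and the 15744 genes that filterByExpr kept, and P-values were adjusted by Benjamini-Hochberg. CPM values are TMM scaled, log2 CPM used a prior count of 2, and SE values are fitted changes divided by the root of F. Libraries are paired because the same line was grown in both conditions. Within a line, deviations from the condition mean correlated at 0.421 to 0.664, and between lines at -0.523 to 0.249. No 2 libraries of a condition agreed within counting noise (chi-square per degree of freedom of at least 43.4). Alternatives were RLE factors, library size only, other filters, the likelihood ratio test, DESeq2 1.42.0, limma-voom (limma 3.58.1), the replicate block, no fold threshold and each library left out. Coordinates came from the RefSeq gene table of ARS-UCD2.0, which matched 30281 genes. CDH2, ZEB1 and ZEB2 overlap other annotated genes, which had under 1 CPM where they were counted. Gene lengths without introns were not used here, so levels were not compared between genes per length.

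The members and lists were chosen with earlier results of these data known. Genes named were the members, in each list the called genes with the smallest adjusted P-values (up to 4, or up to 3 more from the paired fit where fewer than 2 were called), the genes most like CDH1 and VIM, and marker genes. The fits were also run on simulated counts, with a line effect of fixed size that was not estimated from these data. That check therefore does not show how the fits perform under the line differences found here.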

Additional observations from a re-analysis of the deposited data

Results flagged for a closer look

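Totals, mitochondrial shares, fibroblast sums, member levels and member ratios were examined for a library far from the rest of its condition, in 34 groups of 4 libraries. Such a library was found in 2 groups, and chance alone would give about 1.7. In feeder-free culture, line D stood apart with a total of 102351560, the remaining totals being 49671478 to 51320214. After thinning of that library to the median of the remaining ones, 0 members were called in the unpaired fit, as before. On MEF, line A stood apart with a mitochondrial share of 4.11 percent, the remaining shares being 1.91 to 2.25 percent. Line A had the highest share in feeder-free culture too, at 4.01 percent, with line E at 3.73 percent. The MEF library of line A had the highest VIM, CDH2, ZEB1, SNAI1, SNAI2 and TWIST1 levels of its condition, SNAI2 resting on 8 counts. No member's level stood apart in this way in either condition.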

How the results depend on the processing

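Every scaling, filter and test alternative kept the direction of each member's log2 fold change, and each reversal came from leaving out a library or a line. With 1 library left out, CDH1 ranged from -0.18 to 0.46 and was below 0 without line A (-0.073) or line E (-0.093) on MEF, or line D in feeder-free culture (-0.18). CDH2 ranged from -0.49 to 0.049, the last without line A on MEF. CDH11 ranged from -0.083 to 0.16 and was below 0 without line E on MEF (-0.083), or line C (-0.057) or line E (-0.018) in feeder-free culture. VIM ranged from -0.078, without line D in feeder-free culture, to 0.32. SNAI1 ranged from -0.11 to 0.30 and was below 0 without line D (-0.030) or line E (-0.11) on MEF, or line D in feeder-free culture (-0.029). In the paired fit with 1 line left out, CDH11 ranged from -0.14 (line E) to 0.15, VIM from -0.19 (line D) to 0.47 and SNAI1 from -0.031 (line D) to 0.29. Without reversing, TWIST1 went from -0.46 to -0.18 without line A on MEF and to -0.86 without line A in feeder-free culture. ZEB2 went from -0.66 to -0.43 without line E on MEF. In feeder-free culture it went to -0.40 without line D and to -0.92 without line A. None of these values was called. Members called were 0 higher and 0 lower without any 1 library. SNAI2 was the 1 member higher with the likelihood ratio test and DESeq2, and ZEB1 the 1 member lower with these and with at least 10 counts in every library, a filter that removed SNAI2. The replicate block, which pairs libraries by line, gave 2 lower and changed no other member's call. Leaving out each line there, an alternative chosen like the thinning after seeing the data, gave 0 to 1 higher and 1 to 2 lower.

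Over all genes, 114 were called higher and 158 lower. No filter gave 73 and 97, library size only 91 lower, at least 10 counts in every library 199 higher, the likelihood ratio test 448 and 389, DESeq2 695 and 516, the replicate block 869 and 713, and leaving out 1 library 0 to 259 and 0 to 231. The other lists had 2 higher and 2 lower genes, which became 8 and 5 by likelihood ratio, 12 and 7 by DESeq2, and with the replicate block 14 and 9. There limma-voom gave 1 higher, library size only and no filter 1 lower each, and leaving out 1 library 0 to 6 and 0 to 3. Fewer samples or other gene numbers are part of the construction of the left-out libraries and filters, and for other settings the cause was not tested. A prior count of 0.5 moved no member's mean log2 CPM by more than the spread between lines. Lengths of transcripts were not used here, so that alternative was not run.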

Other observations

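Among markers of tissues that the pluripotent cells could form, PTGS2, which encodes a prostaglandin synthase, was called higher in feeder-free conditions, at 0.278 ± 0.110 on MEF and 1.51 ± 0.564 CPM without feeders (both SD, n = 4). Its log2 fold change was 2.43, with 0.0373 as edgeR's adjusted p. PTGS2 was the 1 gene called in the unpaired fit of 5 trophoblast markers tested. The primitive streak, endoderm and neural lists had 0 called there. Of all genes, that fit called 0.724 percent higher and 1.00 percent lower. KRT7, a keratin of simple epithelia, had 19.0 to 36.7 CPM on MEF and 40.9 to 113 CPM in feeder-free conditions and was not called in the unpaired quasi-likelihood test. It was called higher in the paired fit, at a log2 fold change of 1.46, and by the likelihood ratio test and DESeq2. EOMES, a T-box factor of the primitive streak and trophoblast, was called higher in the paired fit as well, at 0.77 to 6.69 CPM on MEF and 6.26 to 9.53 CPM in feeder-free conditions. GATA2 was called lower there, at 0.77 to 1.49 and 0.20 to 0.58 CPM. The paired fit thus called 2 higher and 1 lower of 5 trophoblast markers tested, and 1 higher of 3 primitive streak markers. It called 0 of 3 endoderm and 0 of 6 neural markers. Of all genes, it called 5.52 percent higher and 4.53 percent lower.

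The log2 ratio of ZEB2 to ZEB1 counts was higher without feeders in lines A, C and E, by 0.79, 0.15 and 0.70, and changed by -0.37 in line D. The log2 ratio of EPCAM to CDH1 counts was higher in 4 of 4 lines, by 0.58, 0.28, 0.66 and 0.15 in lines A, C, D and E. No test was made of these ratios, since the members were chosen with earlier results of these data known.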
